A study of Mus musculus with 8 samples.

Results

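The genes described here are 10 transcription factor and signalling genes that mark cells leaving naive pluripotency: Fgf5, Otx2 and Pou3f1 for the primed epiblast, T for the primitive streak and mesoderm, Gata4, Gata6, Sox17 and Foxa2 for endoderm, and Pax6 and Sox1 for neural ectoderm. They were chosen by name, with earlier results of these data known, and all 10 were found among the 24062 genes counted. They were measured by RNA-seq of poly(A) RNA in mouse embryonic stem cells (mESCs) of a single line, the Setdb1 conditional KO line #33-6, grown without a feeder layer on gelatin in medium with serum, KSR and LIF. SETDB1 is a histone H3K9 methyltransferase, and UNC0642 is an inhibitor of the catalytic activity of G9a and GLP, the methyltransferases that place most H3K9me2. WT mESCs carried the conditional allele and received no agent. UNC0642-treated WT mESCs received 2 μM UNC0642 for 3 days, and Setdb1 KO mESCs received 800 nM 4-OHT, the drug that induces the deletion, for 5 days. UNC0642-treated Setdb1 KO mESCs received 800 nM 4-OHT for 2 days and then 2 μM UNC0642 for 3 days by their label, whereas the study's methods give the longer 4-OHT treatment for both KO conditions. Each condition had 2 biological replicates. No condition paired 4-OHT with an intact Setdb1 gene, so an effect of the drug and an effect of the deletion cannot be told apart. All conditions came from 1 line, and bulk RNA cannot tell fewer cells of a type from less RNA per cell.

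Naive mESCs correspond to the epiblast of the blastocyst before implantation. On leaving this state they pass through a formative and then a primed state, in which OTX2 redirects POU5F1 to new enhancers, the growth factor FGF5 is switched on and the POU factor OCT6, encoded by Pou3f1, is produced. Cells then turn on factors of the germ layers: brachyury, encoded by T, at the primitive streak, SOX17 and FOXA2 in definitive endoderm, GATA4 and GATA6 in primitive and visceral endoderm and again in later endoderm and heart, and SOX1 and PAX6 in the neural plate.

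Library totals ranged from 11702590 to 26807807 counts, of which genes took 82.9% to 97.2% and transposable element subfamilies the rest. A count of 3, taken as the detection floor, was worth 0.112 to 0.256 CPM (counts scaled to a fixed library total) before further scaling. Levels below are CPM on library totals scaled by TMM, a trimmed-mean normalization. Setdb1, counted over the whole gene, was at 169 and 127 CPM in WT and at 130 and 86.3 CPM in UNC0642-treated WT mESCs, against 47.3 and 51.0 CPM in Setdb1 KO mESCs and, after 4-OHT and UNC0642 together, 61.1 and 34.1 CPM. Its libraries were lower in both KO conditions than in both conditions without 4-OHT. Pou5f1, which defines pluripotent cells, was at 566 to 1196 CPM in all 8 libraries, as is typical of mESCs. The summed level of 8 core pluripotency genes was between 3046 and 4517 CPM. That of 12 fibroblast genes, which would mark feeder cells, was between 12.6 and 37.3 CPM.

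The members lie on 8 chromosomes of GRCm38 by the GENCODE M21 annotation. Fgf5 is at chr5:98254184-98277030 on the plus strand and Otx2 at chr14:48657677-48673819 on the minus strand. Pou3f1 is a single-exon gene at chr4:124656807-124660655, and T lies at chr17:8434423-8442496. Of the endoderm genes, Gata4 is at chr14:63198922-63271692, Sox17 is at chr1:4490931-4497354 and Foxa2 at chr2:148042877-148046969. Pax6 is at chr2:105668900-105697364 and Sox1, with a single exon, at chr8:12395295-12400126. Genes on the opposite strand share exonic sequence with some of them. Otx2os1 shares 154 bp with Otx2 and had 0 to 10 counts per library, and 1010001N08Rik shares 93 bp with Gata6 and had 0 to 11 counts. Gm37587 shares 804 bp with Sox17 and Gm2164 shares 330 bp with Pou3f1, and neither was in the count tables. The strand setting of the counting is not given in the sources used here, so reads of these pairs cannot be told apart.

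Promoter windows from RefSeq (GRCm38.p6, from 250 bases before to 50 bases after a transcription start) were matched for 6 of the 10 genes. The windows of Fgf5 and of the most upstream of 4 RefSeq starts of Otx2 are shown because these were the genes with the largest changes. CG dinucleotides, the sites of DNA methylation, are in capitals. The Fgf5 window lies at chr5:98253934-98254233 on the plus strand and the Otx2 window at chr14:48667595-48667894 on the minus strand.
Fgf5: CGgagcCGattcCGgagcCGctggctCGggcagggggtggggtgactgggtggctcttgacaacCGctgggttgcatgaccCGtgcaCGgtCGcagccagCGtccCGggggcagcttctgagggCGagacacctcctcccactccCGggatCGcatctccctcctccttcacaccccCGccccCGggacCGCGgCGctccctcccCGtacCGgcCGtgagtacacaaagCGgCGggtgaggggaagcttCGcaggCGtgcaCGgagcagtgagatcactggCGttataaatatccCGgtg
Otx2: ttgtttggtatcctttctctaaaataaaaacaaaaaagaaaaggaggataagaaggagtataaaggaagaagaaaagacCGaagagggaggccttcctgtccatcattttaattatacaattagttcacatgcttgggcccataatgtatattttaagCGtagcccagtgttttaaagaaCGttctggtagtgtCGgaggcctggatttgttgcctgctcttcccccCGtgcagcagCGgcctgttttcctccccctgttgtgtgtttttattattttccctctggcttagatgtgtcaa
The Fgf5 window holds 29 CG dinucleotides, more than 87.1% of the 32851 windows of this length, and the Otx2 window holds 6, near the median of 7. The other 3 Otx2 windows hold 8, 16 and 11. The letters TATAAA, searched on both strands, begin at position 35 in Fgf5 and at position -192 in Otx2, counted from 1 at the transcription start, and 13.6% of all windows hold them. The OTX core TAATCC was found at position -211 of the third Otx2 window, on its minus strand, and overlapped the GATA letters AGATAA at -208, which occur in 11.2% of windows. TAATCC occurs in 7.06% of windows. AGATAA was also found at position -133 of the 4th Otx2 window and at -183 of the 3rd Foxa2 window. That Foxa2 window also holds TATAAA, at -208 on its minus strand. The octamer ATGCAAAT was found at position 19 of the Sox1 window, and in 1.74% of windows. The SOX letters ATTGTT, present in 10.7% of windows, were in none of the 12 windows of these 6 genes.

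In WT mESCs the 10 genes differed widely in level. Levels per length use all annotated exons merged, from 2.3 kb for T to 11.7 kb for Pax6, so the order depends on this choice. Per length of exon, Otx2 was the highest, at 11.1 ± 4.60 CPM per kb (SD, n = 2), and its libraries did not overlap those of any other member. Pou3f1 at 2.30, Sox1 at 2.28, Gata4 at 1.86 and Gata6 at 1.39 CPM per kb followed, and neighbours in this order overlapped. Pax6, Sox17, Fgf5, Foxa2 and T were below them, between 0.0610 and 0.306 CPM per kb. The order was different in Setdb1 KO mESCs, where Fgf5 stood 2nd behind Otx2, at 3.73 ± 2.41 CPM per kb (SD, n = 2), and overlapped Pou3f1 below it. Foxa2, Sox17 and T were among the 4 lowest members in all 4 conditions.

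**Figure D1:**
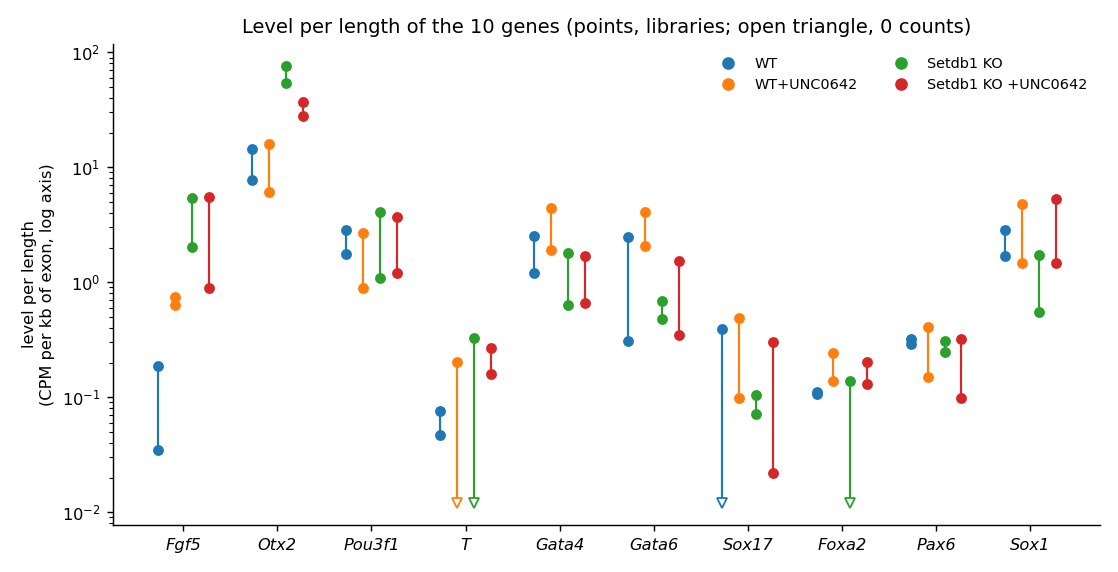
Level of each gene per length, in CPM per kb of exon on a log axis, in the 8 libraries. Points are libraries, lines join the 2 libraries of a condition, and open triangles at the foot mark libraries with 0 counts. Otx2 lies above every other gene in each condition, and Fgf5 moves from the low genes in WT to 2nd place in Setdb1 KO mESCs.

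Fgf5 and Otx2 were the members with both Setdb1 KO libraries above both WT libraries. Fgf5, the secreted growth factor of the primed epiblast, had 1 and 13 counts in the WT libraries, or 0.0870 and 0.469 CPM. It was at 13.6 and 5.06 CPM in Setdb1 KO mESCs and, when UNC0642 was added to the KO, at 13.7 and 2.24 CPM. Its libraries in both KO conditions lay above all 4 libraries without 4-OHT, and replicate 1 was the higher library in both KO conditions. UNC0642-treated WT mESCs lay between them, at 1.60 and 1.87 CPM, and did not overlap WT.

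The difference of Fgf5 between Setdb1 KO and WT mESCs was 29.5-fold (log2 fold change 4.88, SE 1.10), with an adjusted p of 0.0873 by edgeR's quasi-likelihood test. With the replicate number as a block it was 22.2-fold (log2 4.47, SE 0.93) and passed, with an adjusted p of 0.0319. With UNC0642 added to the KO, Fgf5 rose 24.9-fold over WT (log2 4.64, SE 1.09, edgeR adjusted p = 0.0493), and with the block 17.0-fold (edgeR adjusted p = 0.0221). The call without the block lay close to the threshold: it was lost without WT replicate 1 (edgeR adjusted p = 0.223), without WT replicate 2 (0.172) and without replicate 1 of UNC0642-treated Setdb1 KO mESCs (0.205). In UNC0642-treated WT mESCs the log2 fold change was 2.46 (SE 1.03), with an unadjusted p of 0.0398 and an edgeR adjusted p of 1.0, which did not pass. With 1 and 13 counts in WT, the size of these folds was imprecise: leaving out 1 library, the log2 value over WT was between 4.00 (without Setdb1 KO replicate 1) and 6.64 (without WT replicate 2) in Setdb1 KO mESCs. After both treatments it was between 2.82 (without replicate 1 of that condition) and 6.42 (without WT replicate 2), and 4.04 without WT replicate 1. In UNC0642-treated WT mESCs it was between 1.88 and 4.25.

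Otx2, the homeodomain factor of the primed epiblast and later of the anterior head, was already present in WT mESCs, at 60.4 and 32.9 CPM. It was at 321 and 228 CPM in Setdb1 KO mESCs and at 118 and 155 CPM in UNC0642-treated Setdb1 KO mESCs. In UNC0642-treated WT mESCs it was at 67.6 and 25.8 CPM, around the WT libraries. Both KO conditions thus lay above the 4 libraries without 4-OHT, and the libraries of UNC0642-treated Setdb1 KO mESCs lay below those of Setdb1 KO mESCs. Otx2 was above 71.9% of tested genes by CPM in WT mESCs and above 95.8% in Setdb1 KO mESCs.

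The Setdb1 KO libraries exceeded WT for Otx2 by 5.89-fold (log2 2.56, SE 0.56, edgeR adjusted p = 0.0821), and with the replicate block 6.04-fold (log2 2.60, SE 0.40, edgeR adjusted p = 0.00851). For UNC0642-treated Setdb1 KO over WT mESCs it differed by 1.55 on the log2 scale (SE 0.54, edgeR adjusted p = 0.166), and 1.68 with the block, where it passed (edgeR adjusted p = 0.0225). The step from Setdb1 KO to UNC0642-treated Setdb1 KO mESCs was -1.01 (SE 0.54, edgeR adjusted p = 1.0), and -0.92 with the block (edgeR adjusted p = 0.432), so the lower level with UNC0642 did not pass the test. Over UNC0642-treated WT mESCs, Otx2 in UNC0642-treated Setdb1 KO mESCs differed by 1.55 (edgeR adjusted p = 0.350), and by 1.73 with the block, which passed (edgeR adjusted p = 0.0450).

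**Figure D2:**
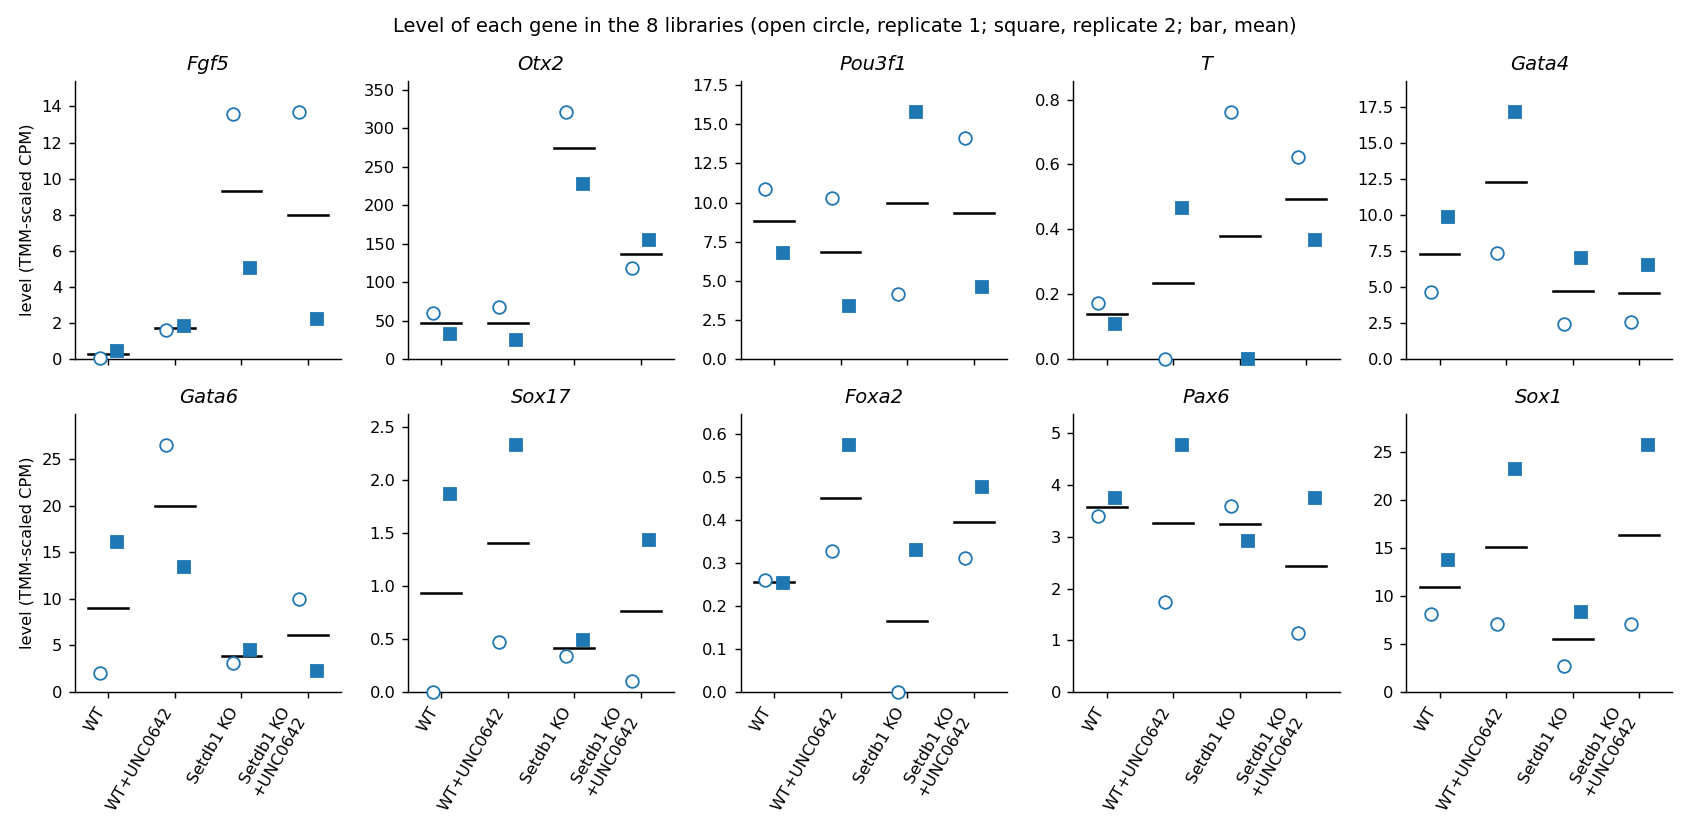
Level of each gene, in TMM-scaled CPM on a linear axis from 0, in the 8 libraries. Open circles are replicate 1, squares replicate 2 and bars the mean of both. Fgf5 and Otx2 are higher in both KO conditions than in the 2 conditions without 4-OHT, and Gata4, Sox17 and Sox1 are higher in replicate 2 of every condition.

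Pou3f1, the third primed marker, did not move with them. It was at 10.9 and 6.82 CPM in WT, 10.3 and 3.42 CPM in UNC0642-treated WT, 4.19 and 15.8 CPM in Setdb1 KO and 14.1 and 4.63 CPM in UNC0642-treated Setdb1 KO mESCs. The libraries of all 4 conditions overlapped, with log2 fold changes over WT of -0.37 (SE 0.82), 0.18 (SE 0.82) and 0.08 (SE 0.82). Errors of this size leave a change of 1 log2 unit in either direction undecided. Pou3f1 and Fgf5 were unrelated over the 8 libraries (Pearson r = -0.01), whereas Fgf5 and Otx2 had r = 0.66. These values describe libraries that share their conditions and scaling.

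T was at the edge of detection. It had 2 and 3 counts in WT, 0 and 13 in UNC0642-treated WT, 18 and 0 in Setdb1 KO mESCs and, after both treatments, 6 and 10, or 52 counts in all. It passed the filter on low counts through libraries outside WT, and its 18 counts in 1 library of Setdb1 KO mESCs stood beside 0 in the other. Its log2 fold change over WT in UNC0642-treated Setdb1 KO mESCs was 1.79 (SE 1.73, edgeR adjusted p = 0.677), so a change was not detectable at this depth. Of 18 further primitive streak and mesoderm genes, 10 passed the filter, and 0 were called in the 3 comparisons with WT without the block. Eomes, a T-box factor of the streak, was at 17.7 and 18.1 CPM in WT, 12.2 and 7.26 CPM in UNC0642-treated WT and 41.5 and 12.4 CPM in Setdb1 KO mESCs. After both treatments it was at 9.86 and 3.05 CPM, and fell there with the block alone, where 15.7% of all tested genes were called. Mixl1, a homeobox gene of the streak, was at 1.57 and 1.55 CPM in WT and at 0.415 and 0.147 CPM after both treatments, and did not pass. After both treatments the median log2 fold change over WT of the 10 tested genes was -1.33 without the block. Of the 10, 4 had an estimate above 0, the highest being Wnt3 (1.47) and Snai1 (1.34).

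The endoderm genes Gata4, Gata6, Sox17 and Foxa2 all had their highest mean in UNC0642-treated WT mESCs, Sox17 and Foxa2 on low counts. Gata4, a zinc finger factor of extraembryonic endoderm and heart, was at 4.70 and 9.85 CPM in WT and 7.38 and 17.2 CPM in UNC0642-treated WT mESCs. It was at 2.45 and 7.04 CPM in Setdb1 KO and 2.59 and 6.54 CPM in UNC0642-treated Setdb1 KO mESCs. Within each condition replicate 2 was the higher library, and the libraries of both KO conditions overlapped those of WT and lay below both of UNC0642-treated WT mESCs. With UNC0642 in both arms, the difference between KO and WT mESCs was -1.41 on the log2 scale (SE 0.76, edgeR adjusted p = 0.713), and with the block -1.44 (SE 0.33), which passed (edgeR adjusted p = 0.0484).

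Gata6, which specifies primitive endoderm and lies at chr18:11052064-11085635, was at 2.00 and 16.1 CPM in WT, so the WT libraries differed 8.02-fold. It was at 26.5 and 13.4 CPM in UNC0642-treated WT, 3.13 and 4.51 CPM in Setdb1 KO and 9.96 and 2.24 CPM in UNC0642-treated Setdb1 KO mESCs. The KO libraries lay within the range of the WT libraries and below those of UNC0642-treated WT mESCs. Gata6 in UNC0642-treated Setdb1 KO mESCs was 3.32-fold lower than in UNC0642-treated WT mESCs (log2 -1.73, SE 0.97, edgeR adjusted p = 0.751), which did not pass with or without the block. Among 16 tested genes of a primitive and visceral endoderm list, the median log2 fold change over WT was 0.32 in UNC0642-treated WT, -0.75 in Setdb1 KO and -0.89 in UNC0642-treated Setdb1 KO mESCs. Of these 16 genes, 0 were called without the block. With it, the laminin and collagen genes Lama1, Lamb1 and Col4a2 fell in UNC0642-treated Setdb1 KO mESCs, where 15.7% of all tested genes were called, and Lama1 fell in Setdb1 KO mESCs. Pdgfra, a receptor of primitive endoderm, was at 2.70 and 5.95 CPM in WT and 18.1 and 15.9 CPM in UNC0642-treated WT mESCs, above both WT libraries (log2 1.96, SE 0.63, edgeR adjusted p = 0.895). It was at 1.48 and 2.59 CPM in Setdb1 KO mESCs and 6.85 and 3.34 CPM after both treatments, and passed in none of the 3 comparisons with WT.

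Sox17, an HMG-box factor of endoderm, had 0 and 52 counts in WT, 10 and 65 in UNC0642-treated WT, 8 and 9 in Setdb1 KO mESCs and, after both treatments, 1 and 39. Its condition means lay between 0.417 and 1.404 CPM, a range smaller than the gap between the WT libraries, at 0 and 1.88 CPM. Foxa2, the forkhead factor of definitive endoderm, had 55 counts over all libraries, with 0 to 16 in each. It passed the filter through UNC0642-treated libraries alone, and its levels, at most 0.575 CPM, did not allow a change to be detected. Of 6 tested genes of a definitive endoderm list, Trh, the thyrotropin-releasing hormone gene, rose in UNC0642-treated Setdb1 KO mESCs, from 19.2 and 23.5 CPM in WT to 319 and 103 CPM (log2 3.30, SE 0.59, edgeR adjusted p = 0.0156). Cldn6, a claudin gene, was at 17.1 and 24.96 CPM in WT and 4.46 and 6.51 CPM after both treatments, and passed only with the block. The median of the 6 was -0.68 in both KO conditions.

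The neural genes differed in level, Sox1 lying above 34.7% to 52.3% of tested genes by mean CPM in the 4 conditions and Pax6 above 25.6% to 29.4%. Sox1, the SOXB1 factor of the early neural plate, was at 8.18 and 13.8 CPM in WT, 7.05 and 23.3 CPM in UNC0642-treated WT, 2.67 and 8.36 CPM in Setdb1 KO and 7.06 and 25.8 CPM in UNC0642-treated Setdb1 KO mESCs. Replicate 2 was the higher library in every condition, and within each replicate Setdb1 KO mESCs had the lowest value. Sox1 in UNC0642-treated Setdb1 KO over Setdb1 KO mESCs differed by 1.58 (SE 0.84, edgeR adjusted p = 1.0), and with the block by 1.53 (SE 0.36, unadjusted p = 0.00247, edgeR adjusted p = 0.172). Between Setdb1 KO and WT mESCs it was 2.00-fold lower (SE of the log2 value 0.83), and with the block the log2 difference was -1.19 (SE 0.36, unadjusted p = 0.0102, edgeR adjusted p = 0.125). Neither difference passed the adjusted threshold in edgeR.

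Pax6, the paired-box factor of the neural tube and eye, was at 3.39 and 3.75 CPM in WT, 1.74 and 4.78 CPM in UNC0642-treated WT, 3.60 and 2.92 CPM in Setdb1 KO and 1.14 and 3.75 CPM in UNC0642-treated Setdb1 KO mESCs. The conditions overlapped, with log2 fold changes over WT between -0.52 and -0.13. Of 20 genes of a neural ectoderm list, 11 were tested and 0 were called without the block. Olig2, a basic helix-loop-helix factor of the neural tube, was at 10.8 and 36.3 CPM in WT and after both treatments at 3.32 and 4.37 CPM (edgeR adjusted p = 0.0655), and fell there with the block, as did the LIM factor Lhx2. These were 2 of the 11 tested genes, beside 15.7% of all tested genes called in that fit. Without the block, 5 of the 11 had an estimate above 0 after both treatments, and the list median was -0.42. Neurod1 (log2 1.12) and Nes (0.97) were the highest.

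Counted over the 10 genes, 0 were called in UNC0642-treated WT mESCs (background 0.0% of the 15313 tested genes, either direction) and 0 in Setdb1 KO mESCs (background 0.888%) at an adjusted p under 0.05. In UNC0642-treated Setdb1 KO mESCs 1 was called, Fgf5 (background 3.62%), which also passed a fold change above 10 (background 2.81%). DESeq2 on all 8 libraries called 0 (background 0.751%), 2 (Fgf5 and Otx2, background 2.91%) and 1 (Fgf5, background 8.52%) in these 3 comparisons. In edgeR with the block the counts were 0 (background 0.176%), 2 (Fgf5 and Otx2, background 3.32%) and 2 (Fgf5 and Otx2, background 15.7%). UNC0642-treated Setdb1 KO against Setdb1 KO mESCs gave 0 members without the block (background 0.0%) and 0 with it (background 0.124%). Against UNC0642-treated WT mESCs it gave 0 (background 0.908%) and, with the block, 2 (Otx2 higher and Gata4 lower, background 3.79%). At an unadjusted p under 0.05 without the block, the number of members was 1 in UNC0642-treated WT (background 3.41%), 2 in Setdb1 KO (background 7.58%) and 2 in UNC0642-treated Setdb1 KO mESCs (background 16.9%), each time Fgf5 and, in both KO conditions, Otx2. It was 0 for UNC0642-treated Setdb1 KO against Setdb1 KO mESCs (background 4.7%), and 2 (Fgf5 and Otx2) against UNC0642-treated WT mESCs (background 8.23%).

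The members did not move as 1 group. Their median log2 fold change over WT was 0.63 in UNC0642-treated WT, -0.38 in Setdb1 KO and 0.33 in UNC0642-treated Setdb1 KO mESCs, where the median of all tested genes was -0.04, -0.06 and -0.06. The estimate was above 0 for 8, 4 and 6 of the 10 genes, T and Foxa2 included, and for 45.8%, 45.6% and 46.8% of all tested genes. With the block it was above 0 for 7, 4 and 5. Both libraries of Fgf5 lay above both WT libraries in UNC0642-treated WT mESCs, which held for 13.1% of all tested genes. The same was seen for Fgf5 and Otx2 in Setdb1 KO mESCs (15.4% of tested genes) and in UNC0642-treated Setdb1 KO mESCs (19.8%). T and Foxa2 are left out of these counts, since they passed the filter only through libraries outside WT. Fgf5 reached the level that the filter asks for in 7 libraries, but not in WT replicate 1, with 1 count. Its WT libraries alone would not have passed it, so its place in these counts is a description. Against UNC0642-treated WT mESCs, both libraries of the latter lay above for Fgf5 and Otx2 (14.5%) and below for Gata4 and Gata6 (17.6%), and against Setdb1 KO mESCs below for Otx2 (13.7%). The 3 comparisons with WT share its libraries.

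**Figure D3:**
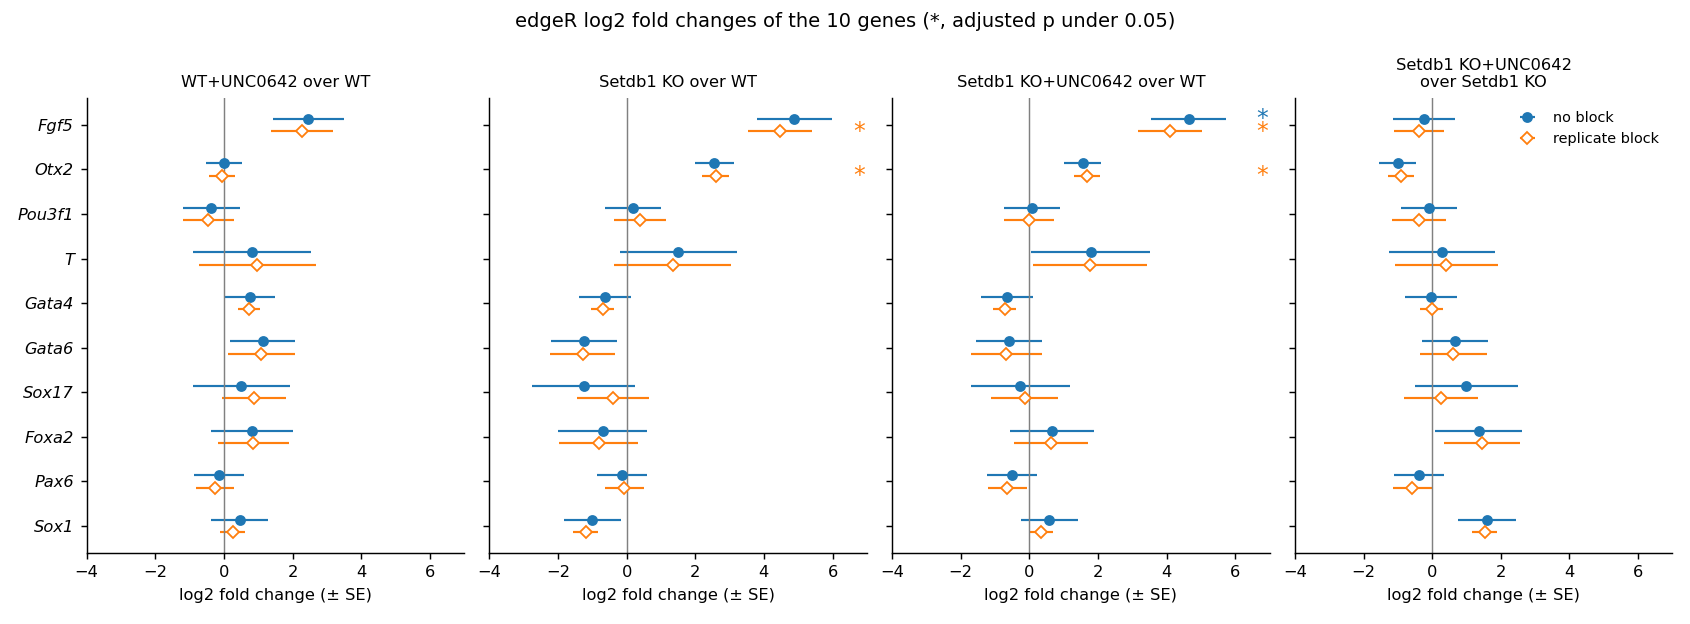
Log2 fold change of each gene by edgeR, with an SE derived from the F statistic of the test, in 4 comparisons. Filled circles are from the fit without the replicate block, open diamonds from the fit with it, and an asterisk in the same colour marks an adjusted p under 0.05. Fgf5 and Otx2 are the only genes with an asterisk in these 4 comparisons, and the SEs of Gata4 and Sox1 are smaller with the block.

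The difference between the UNC0642 steps in KO and in WT mESCs was tested as an interaction. By the labels the 2 KO conditions also differ in 4-OHT time (5 and 2 days), so in this test and in the step from Setdb1 KO to UNC0642-treated Setdb1 KO mESCs, UNC0642 and the time with 4-OHT cannot be told apart. In the interaction 0 members passed, without the block (background 0.0%) or with it (background 0.0%). At an unadjusted p under 0.05, the number of members was 0 without the block (background 0.777%). For Fgf5 the interaction was -2.70 (SE 1.36, unadjusted p = 0.0768): its log2 fold change with UNC0642 was 2.46 in WT and -0.24 in Setdb1 KO mESCs. For Sox1 it was 1.28 with the block (SE 0.50, unadjusted p = 0.0324), with an adjusted p of 1.0 in edgeR.

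Sox1, Gata4 and Sox17 differed between the replicates in every condition. The fold difference was 2.83 for Sox1, higher in replicate 2 (edgeR with the block, adjusted p = 0.00445), 2.43 for Gata4 (0.00559) and 5.77 for Sox17 (0.0311), each with replicate 2 the higher library in 4 of 4 conditions. For Sox17 the size varied: its libraries had 8 and 9 counts in Setdb1 KO mESCs, where they differed 1.46-fold, and 0 and 52 counts in WT. Such a replicate difference was called for 34.2% of all tested genes, 19.4% of tested genes in the same direction, and 27.6% of tested genes were higher in replicate 2 of all 4 conditions. Otx2 went the other way in 3 of 4 conditions (log2 -0.59, edgeR adjusted p = 0.122). Over the 8 libraries Gata4 and Sox1 had r = 0.76 and Gata4 and Sox17 r = 0.73, and Gata4 and Otx2 r = -0.72, the lowest of the member pairs. The replicate difference is part of each of these correlations, and what the 2 replicates differed in is not stated by the labels.

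By Pearson r of log2 CPM over the 8 libraries, the tested genes most like Fgf5 were Boll (0.987) and Tsix (0.973), and those most like Otx2 were Ddx4 (0.973) and Vwa5a (0.972). Gata4 was most like Wscd1 (0.986) and Ace (0.968), Sox17 most like 2010111I01Rik (0.989) and Dpagt1 (0.981), and Sox1 most like 1700101I11Rik (0.961) and Hist1h4n (0.952). Pou3f1 and T had no such close gene, with Dhrs3 (0.911) and Suv39h1 (0.907) nearest to Pou3f1 and Cyr61 (0.874) and Vimp (0.866) nearest to T. For Gata6 the nearest were Zfp827 (0.915) and Ptprz1 (0.894), for Foxa2 Hist1h4n (0.938) and Rab31 (0.929), and for Pax6 Gpatch2l (0.967) and Tnfrsf18 (0.958). These are the highest of 15313 values over 8 points that share depth and scaling, and are given as a description.

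The other genes of the pluripotency network give the setting in which Fgf5 and Otx2 were higher. Of 15 naive pluripotency genes, all tested, Fbxo15 was called, at 108 and 125 CPM in WT and 318 and 681 CPM in UNC0642-treated Setdb1 KO mESCs (log2 2.10, SE 0.47, edgeR adjusted p = 0.0417). None of the 15 was called lower, with or without the block, and their median log2 fold change was 0.39 in UNC0642-treated WT, -0.10 in Setdb1 KO and 0.36 in UNC0642-treated Setdb1 KO mESCs. Of all tested genes, 0.0%, 0.888% and 3.62% were called in these comparisons in either direction without the block. With the block the shares were 0.176%, 3.32% and 15.7%. Without the block, 15 genes are too few at these shares for 0 lower calls to tell whether naive genes fell. Tbx3, which supports naive self-renewal, was at 23.2 and 76.1 CPM in WT and 257 and 89.2 CPM in Setdb1 KO mESCs and did not pass. Over WT the estimate was above 0 for 12 of the 15 naive genes in UNC0642-treated WT mESCs. It was above 0 for 6 in Setdb1 KO and 10 in UNC0642-treated Setdb1 KO mESCs. Nr0b1 and Dppa3 were the lowest in Setdb1 KO mESCs, at log2 -0.87 and -0.82. Of the 8 core genes, 0 were called, and Sall4 was at 232 and 318 CPM in WT and 509 and 378 CPM in Setdb1 KO mESCs. Dppa4 was at 109 and 117 CPM in WT and 212 and 113 CPM in Setdb1 KO mESCs. The core median over WT was -0.02 in UNC0642-treated WT, 0.25 in Setdb1 KO and 0.43 in UNC0642-treated Setdb1 KO mESCs. The estimate was above 0 for 4, 5 and 5 of the 8 core genes. Utf1 was below 0 in the same order of conditions, at log2 -0.91, -0.53 and -1.34.

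Of 18 further formative and primed genes, Grhl2 was called. It encodes a factor that opens epithelial enhancers in formative cells, and rose from 6.96 and 5.63 CPM in WT to 76.3 and 121 CPM in UNC0642-treated Setdb1 KO mESCs (log2 3.97, SE 0.62, edgeR adjusted p = 0.0100). In Setdb1 KO mESCs it was at 38.0 and 22.5 CPM, with an edgeR adjusted p of 0.140 that passed only with the block (0.0430). In the fit with the block Sox4 fell after both treatments, from 24.2 and 17.4 CPM to 5.40 and 5.26 CPM. The median of the 18 genes over WT was -0.19 in UNC0642-treated WT, 0.28 in Setdb1 KO and 0.21 in UNC0642-treated Setdb1 KO mESCs. Of 19 FGF signalling genes, the pathway that FGF5 feeds into, 0 were called without the block in any of the 3 comparisons. The immediate early gene Egr1 was at 4.44 and 4.91 CPM in WT and 44.6 and 12.4 CPM in UNC0642-treated Setdb1 KO mESCs, and with the block Egr1, Spry1, Spry2 and Mapk3 were called there, 2 higher and 2 lower, or 4 of 19 beside 15.7% of all tested genes in that fit. The receptor gene Fgfr3 was at 4.61 and 13.4 CPM in WT and 3.11 and 2.46 CPM after both treatments and did not pass.

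**Figure D4:**
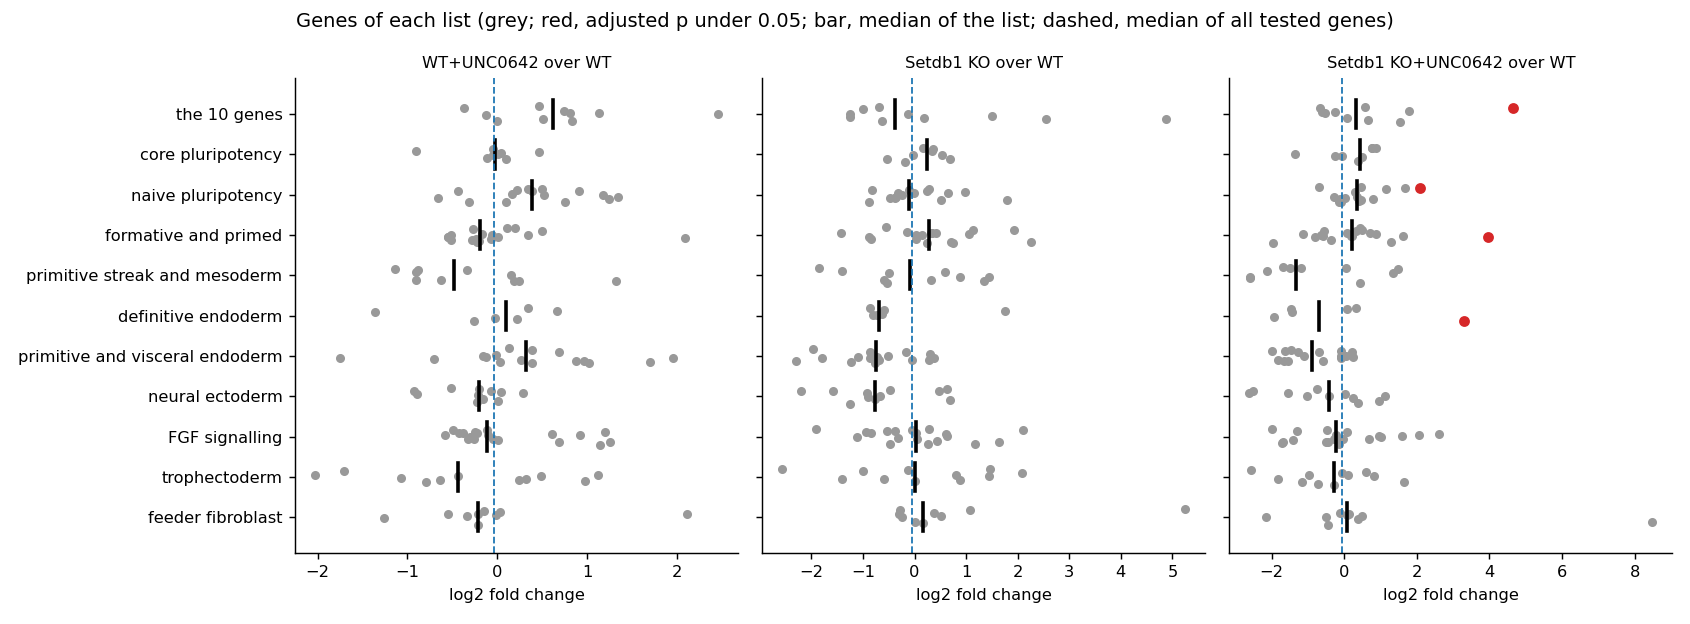
Log2 fold change over WT of the 10 genes and of the tested genes of 10 marker lists, in 3 comparisons by edgeR without the block. Each point is a gene, red points passed an adjusted p under 0.05, bars are list medians and the dashed line is the median of all tested genes. The called genes are Fgf5, Fbxo15, Grhl2 and Trh, all in UNC0642-treated Setdb1 KO mESCs, and the rightmost fibroblast point in both KO panels is Lum, which had 0 counts in WT, so its position depends on the prior count.

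Markers of cell types outside the epiblast were measured in the same libraries as Fgf5 and Otx2. The summed level of 14 trophectoderm genes was 70.5 to 83.2 CPM in WT, 55.7 to 115 CPM in Setdb1 KO and 31.7 to 71.7 CPM in UNC0642-treated Setdb1 KO mESCs, and 0 of the 11 tested were called without the block, while Cdx2, Elf5 and Plac1 did not pass the filter. Krt8 was at 3.48 and 5.63 CPM in WT and 12.8 and 12.0 CPM in Setdb1 KO mESCs and did not pass, and Esx1, an X-linked placental homeobox gene, fell with the block alone in both KO conditions. The fibroblast genes summed to 17.8 to 28.0 CPM in WT, 12.6 to 23.6 CPM in UNC0642-treated WT and 19.9 to 37.3 CPM in Setdb1 KO mESCs. In UNC0642-treated Setdb1 KO mESCs they summed to 14.1 to 27.4 CPM. Of the 9 tested, 0 were called without the block, and with it Lum was called higher and Fbln2 lower after both treatments. Lum was at 0 in both WT libraries and at 2.90 and 1.43 CPM after both treatments, and Fbln2 at 3.05 and 5.84 CPM in WT and 0.415 and 1.51 CPM. The part of these cells in the levels of Fgf5 and Otx2 was not tested.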

How the data were processed

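Poly(A) RNA of 8 libraries was measured, 2 per condition, in groups given by the labels. The authors used Trim Galore 0.3.7 (per the submitters' processing notes), TopHat2 with GRCm38 (mm10) and TEtranscripts, and deposited unnormalized counts of genes and transposable element subfamilies. The filter filterByExpr, with minima of 10 counts and 15 in total, left 15313 genes and 932 subfamilies. A quasi-likelihood model (edgeR 4.0.16, R 4.3.3) with TMM factors over both and 1 coefficient per condition was fitted to all 8 libraries, with Benjamini-Hochberg adjustment over all features and a prior count of 0.125. Each SE is the absolute log2 fold change divided by the square root of the test's F statistic, and is approximate. Tests were tried on simulated data. Counting error at a given count covers neither cultures nor library preparation. DESeq2 1.42.0 and other settings were alternatives. Promoter windows and figures were made in Python 3.11.15.

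The labels number the replicates of every condition 1 and 2. Whether numbers pair libraries was checked on the data: differences between replicates 2 and 1 correlated across genes at 0.285 to 0.663 in all 6 pairs of conditions (median 0.587), so the fit with the number as a block is given where it changes a call.

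The 10 genes and the marker lists were chosen with earlier results of these data known. All 10 genes are named. From each list, genes called against WT (up to 4) or the 2 with the smallest p are named. Other genes, called or with the highest or lowest estimates of a list, were named after their values were seen. The 2 most similar genes per member were taken by r.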

Additional observations from a re-analysis of the deposited data

How the results depend on the processing

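The number of members called in Setdb1 KO against WT mESCs rose from 0 to 2 (Fgf5 and Otx2) with the replicate block, in DESeq2 on all 8 libraries, in edgeR and in DESeq2 on the 4 libraries compared, and without an expression filter. It was 3 in DESeq2 with the replicate block, a setting chosen after seeing the data, which added Sox1. In UNC0642-treated Setdb1 KO against WT mESCs the number rose from 1 to 2 with the replicate block in edgeR and in DESeq2, and was 0 under total counts normalization (Fgf5 adjusted p = 0.0799), with genes only (0.0529) and with counts thinned to the smallest library (0.0553). Leaving out each library in turn gave 0 to 1 in both comparisons: in Setdb1 KO against WT mESCs, Otx2 was called without either library of UNC0642-treated WT mESCs and Fgf5 without either library of UNC0642-treated Setdb1 KO mESCs. Against Setdb1 KO mESCs, UNC0642-treated Setdb1 KO mESCs gave 1 (Sox1) in DESeq2 with the replicate block, and against UNC0642-treated WT mESCs 2 (Otx2 and Gata4) with the block in both tools. The cause was not tested. The replicate block changed no other call of a member. Total counts normalization moved the median of all genes by -0.17 in UNC0642-treated Setdb1 KO over WT mESCs.

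Of 752 member values under other settings, 678 kept their direction and side of the threshold, 20 newly passed, 6 no longer passed, and 48 changed sign, 0 of them with an adjusted p under 0.05. Otx2 in UNC0642-treated WT over WT mESCs, near 0, became -0.0471 with the replicate block, -0.0291 in DESeq2 on 8 and -0.0283 on 4 libraries, -0.029 under RLE, -0.008 in edgeR on 4 libraries, -0.0193 under total counts and -0.0747 in DESeq2 with the block. Pou3f1 in UNC0642-treated Setdb1 KO over WT mESCs became -0.0119 with the block and -0.17 under total counts. Sox17 became 0.055 in Setdb1 KO over WT and -0.0848 in UNC0642-treated Setdb1 KO over Setdb1 KO mESCs in DESeq2 with the block.

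Leaving out 1 library in turn, the log2 fold change in UNC0642-treated WT over WT mESCs ranged from -0.85 to 0.52 for Otx2, -1.36 to 0.20 for Pou3f1, -4.50 to 1.76 for T, -0.024 to 1.41 for Gata4, -1.12 to 7.85 for Sox17, -1.07 to 0.42 for Pax6 and -0.68 to 1.08 for Sox1. In Setdb1 KO over WT mESCs it ranged from -1.09 to 0.84 for Pou3f1, -4.52 to 2.43 for T, -2.07 to 0.92 for Gata6, -2.16 to 6.05 for Sox17 and -5.49 to 0.36 for Foxa2. In UNC0642-treated Setdb1 KO over WT mESCs it ranged from -0.93 to 0.69 for Pou3f1, -2.02 to 1.61 for Gata6, -3.21 to 7.04 for Sox17, -1.64 to 0.0645 for Pax6 and -0.65 to 1.22 for Sox1. In UNC0642-treated Setdb1 KO over Setdb1 KO mESCs it ranged from -2.06 to 0.63 for Fgf5, -1.11 to 1.17 for Pou3f1, -0.65 to 6.30 for T, -0.82 to 0.92 for Gata4, -0.77 to 1.42 for Gata6, -1.90 to 1.77 for Sox17 and -1.47 to 0.20 for Pax6. Where a library was left out, the lone library of its condition is assumed to vary like the others. The small number of libraries and the low counts limit T, Foxa2, Sox17 and Fgf5 in WT.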
